A study of Mus musculus with 4 samples.

Results

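The genes described here encode the membrane-fusion and vesicle proteins of secretion: the synaptotagmins (Syt), syntaxins (Stx), syntaxin-binding proteins (Stxbp), VAMPs (Vamp) and SNAPs (Snap), the SV2 proteins, the synapsins Syn1, Syn2 and Syn3, synaptophysin (Syp), and the disassembly factors Nsf, Napa, Napb and Napg. Members were chosen by gene symbol among the protein-coding genes of the deposited table, which gave 61 genes of 28193 in all, 16973 of them protein-coding. A further 2 rows with such symbols, both pseudogenes, were left out. All 61 members had more than 5 counts in each of the 4 libraries and entered the test. The symbol rule also took Snap91, which encodes the clathrin assembly protein AP180 and is no SNARE.

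fosTRAP-seq was used to sequence ribosome-bound RNA from cells of hippocampal area CA1 that had been active during sleep deprivation (SD). Male C57BL/6J mice of 3 to 5 months received viral vectors for a tamoxifen-dependent Cre under a c-Fos promoter and for a Cre-dependent HA-tagged ribosomal protein Rpl22, while the sample labels give the genotype as cFos-Cre:Ribotag and the tissue as dorsal hippocampus. Every mouse, controls included, was sleep deprived by gentle handling for 5 h on day 0 and given 4-hydroxytamoxifen, so that cells active then were tagged. On day 7 the SD group was sleep deprived for 5 h again and the non-sleep-deprived (NSD) group was left to sleep, and tissue was collected at ZT5, 5 h after lights on. The comparison therefore asks what a second SD session changed in cells tagged during a first. Each library pooled CA1 from 5 mice, with 2 libraries per group, and each batch number in the labels held 1 NSD and 1 SD library. No untagged or input RNA was analysed here.

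Release of a vesicle's content requires that a SNARE on the vesicle (a VAMP) zippers with a syntaxin and a SNAP25-type SNARE on the target membrane, with the syntaxin held by a Munc18 protein of the Stxbp family. In neurons, synaptotagmins on the vesicle bind calcium and couple fusion to the action potential, and afterwards NSF and its SNAP adaptors pull the spent SNARE complex apart. Synapsins tether the reserve of vesicles, synaptophysin and SV2 are integral proteins of the vesicle membrane, and the remaining syntaxins serve the Golgi, endosomes and autophagosomes.

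The libraries held 153511705 to 195910235 rounded counts. Camk2a, abundant in CA1 pyramidal neurons, stood at 4090 to 4379 CPM (counts scaled to library size) in the 4 libraries, but the tagged RNA was not free of transcripts of other cells. Of the CA1 pyramidal markers none was called by edgeR without a block, while Wfs1 and Fibcd1 had an unadjusted p under 0.05 with lower values in SD and were called lower with the batch number as a block and by DESeq2. The summed CPM of 10 interneuron markers was 1072 to 1127 in NSD and 1019 to 1139 in SD, and that of 6 oligodendrocyte-lineage markers was 1421 to 1707 in NSD and 1579 to 1668 in SD, so the groups overlapped for both. Endothelial markers did not overlap: the 6 summed to 36.9 and 49.8 CPM in NSD and to 30.6 and 20.2 CPM in SD. All 6 endothelial markers had fold changes below 0. In such pooled RNA, fewer cells of a type and less RNA per cell cannot be told apart.

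Of the 61 members, 1 rose and 1 fell with SD. Syt2, a fast calcium sensor of transmitter release, was 1.38-fold higher, and Stx3, a plasma membrane syntaxin, stood at 0.737 of its NSD level. To be called, a gene had to differ by more than 1.2-fold and to have an adjusted p below 0.05 (edgeR, quasi-likelihood, Benjamini-Hochberg over the 22338 genes tested). By the same rule, 0.770% of all genes were called higher and 2.33% lower, and among protein-coding genes 0.952% were higher and 0.540% lower, so the members' count was near the background. At an unadjusted p under 0.05 stood 5 members with higher and 4 with lower values in SD, beside 8.86% and 5.76% of protein-coding genes and 6.86% and 12.2% of all genes. The median log2 fold change over the members was 0.04, beside 0.02 over all protein-coding genes tested and -0.02 over all genes tested, and 41 members (67.2%) lay above 0 and 20 below, beside 54.2% of protein-coding genes and 47.2% of all genes above 0.

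With the batch number as a replicate block, 2 members were called higher (Syt2, Syt4) and 3 lower (Stx3, Stx5a, Stxbp2). The background was also higher in that fit, with 2.99% of all genes called higher and 8.47% lower, and 3.77% of protein-coding genes called higher and 3.29% lower. DESeq2 called 2 members higher and 2 lower, beside 3.12% of all genes with an adjusted p higher and 6.03% lower, and 3.98% of protein-coding genes higher and 1.82% lower.

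For 15 members (24.6%) neither SD library was as low as either NSD library, beside 22.0% of all genes and 26.5% of protein-coding genes. The reverse held for 6 members (9.84%), beside 27.5% of all genes and 20.0% of protein-coding genes. The members with no overlap on the low side were Stx3, Stx5a, Stx19, Stxbp2, Snap23 and Syt14.

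**Figure D1:**
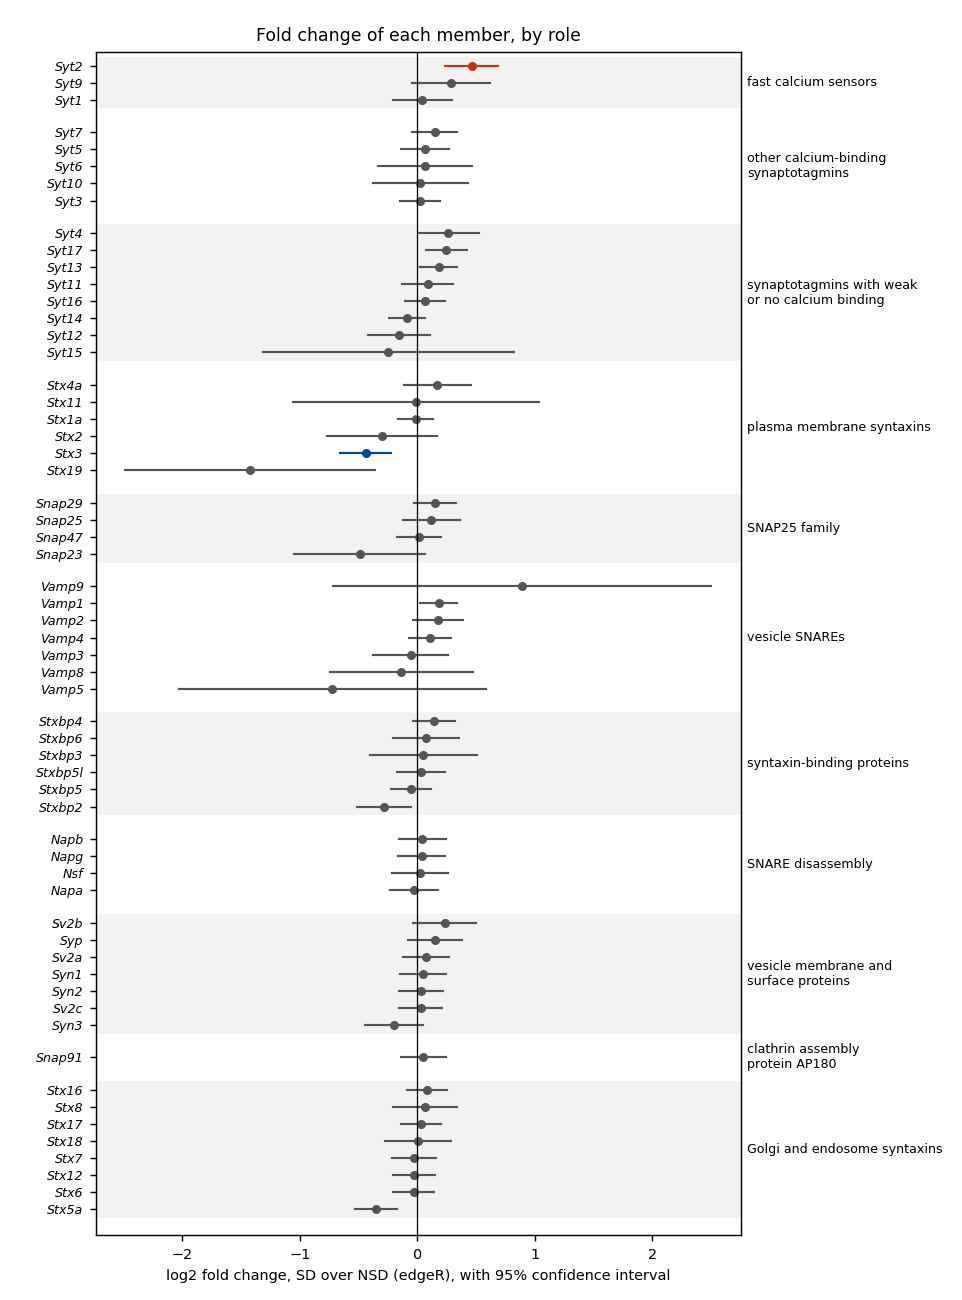
Log2 fold change of SD over NSD for the members reported by name (points) with its 95% confidence interval from edgeR (lines), grouped by role, with 2 libraries per group. Syt2 (red, 0.46) and Stx3 (blue, -0.44) are the members called changed, and the wide intervals belong to members of low level such as Vamp9, Vamp5, Stx19, Stx11 and Syt15.

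Syt2 encodes a sensor that triggers synchronous release and is best known from fast-spiking interneurons and hindbrain synapses. The gene lies at chr1:134574415-134690331 on the plus strand of GRCm39. Its level was 139 and 169 CPM in NSD and 217 and 208 CPM in SD. The groups did not overlap, and the NSD library of batch 1 was the lowest. The log2 fold change was 0.46 with an SE of 0.10 (95% confidence interval 0.24 to 0.69), with an edgeR adjusted p of 0.0482. Within batch 1 the difference was 0.64 on the log2 CPM scale and within batch 2 it was 0.30. The call was made in 6 of 10 alternative settings and lost in the others, among them the fit without NSD replicate 1, where the log2 fold change was 0.36 and the edgeR adjusted p 0.0893. Over all 10 the adjusted p ran from 6.09e-05 to 0.0893.

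The other fast sensors did not pass the test. Syt1, the main calcium sensor of forebrain synapses, stood at 1423 and 1617 CPM in NSD and at 1541 and 1591 CPM in SD, with a log2 fold change of 0.04 (95% confidence interval -0.21 to 0.29). Syt9, the remaining fast sensor, was at 6.33 and 6.80 CPM in NSD and at 7.10 and 8.92 CPM in SD. Per kilobase of exon, Syt1 supplied most of the transcripts of the group. Syt2 made up 11.7% and 12.5% of the summed TPM, the level per kilobase, of Syt1, Syt2 and Syt9 in NSD and 16.1% and 15.1% in SD. This share was higher in SD within both batches.

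Interneuron markers were set beside Syt2. Pvalb, the parvalbumin gene, stood at 13.6 and 13.0 CPM in NSD and at 17.4 and 14.4 CPM in SD (edgeR adjusted p = 0.255). Kcnc1 stood at 239 and 225 CPM in NSD and at 266 and 238 CPM in SD (edgeR adjusted p = 0.511). Gad1, which makes GABA, stood at 332 and 312 CPM in NSD and at 318 and 311 CPM in SD (edgeR adjusted p = 0.883). Of the 10 interneuron markers, 5 had fold changes above 0 and 5 below. None of the 10 was called changed by edgeR without the block, and Pvalb was the only 1 at an unadjusted p under 0.05. With the replicate block 1, Sst, was called lower. The part of interneuron RNA in the Syt2 result was not tested.

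To let the called genes be read beside their regulatory sequence, the bases before an annotated start were taken from RefSeq (GRCm38.p6) and placed on GRCm39 by exact match, keeping the unbroken run outside annotated exons that lies nearest the start. Syt2 has 2 such entries on the plus strand, with an upstream and a downstream start. The run kept before the upstream start is 31 bases at chr1:134574259-134574289. Before the downstream start it is 82 bases at chr1:134636788-134636869. Of the 250 bases before each start, 132 and 168 lay in annotated exons. Stx3 has 1 entry, kept whole, at chr19:11796768-11797017 on the minus strand. The motif shares given below use all 250 bases. Capitals mark a match to TGANTCA, the letters bound by AP-1, the Fos and Jun dimer.
Syt2 upstream start: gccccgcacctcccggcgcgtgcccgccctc
Syt2 downstream start: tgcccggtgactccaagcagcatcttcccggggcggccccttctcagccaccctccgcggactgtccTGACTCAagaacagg
Stx3: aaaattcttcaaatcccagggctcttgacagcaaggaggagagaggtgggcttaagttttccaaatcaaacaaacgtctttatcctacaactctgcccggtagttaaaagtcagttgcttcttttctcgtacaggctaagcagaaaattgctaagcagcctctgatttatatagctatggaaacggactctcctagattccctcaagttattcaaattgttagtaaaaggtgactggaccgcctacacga
On either strand, TGANTCA stood in the 250 bases before the start in 2 of 61 entries of the 48 members that had one, or 3.28%, and in 6.75% of all 32851 entries. The cyclic AMP response element TGACGTCA stood in 3.28% of member entries and 1.55% of all, its part TGACG in 19.7% and 17.8%, and the E-box CACGTG in 14.8% and 6.02%. Each TGACGTCA is also counted under TGACG. The Stx3 window held none of these letters, and the run kept before the upstream start of Syt2 held no TGANTCA. A match is a description of the sequence, not a bound site.

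**Figure D2:**
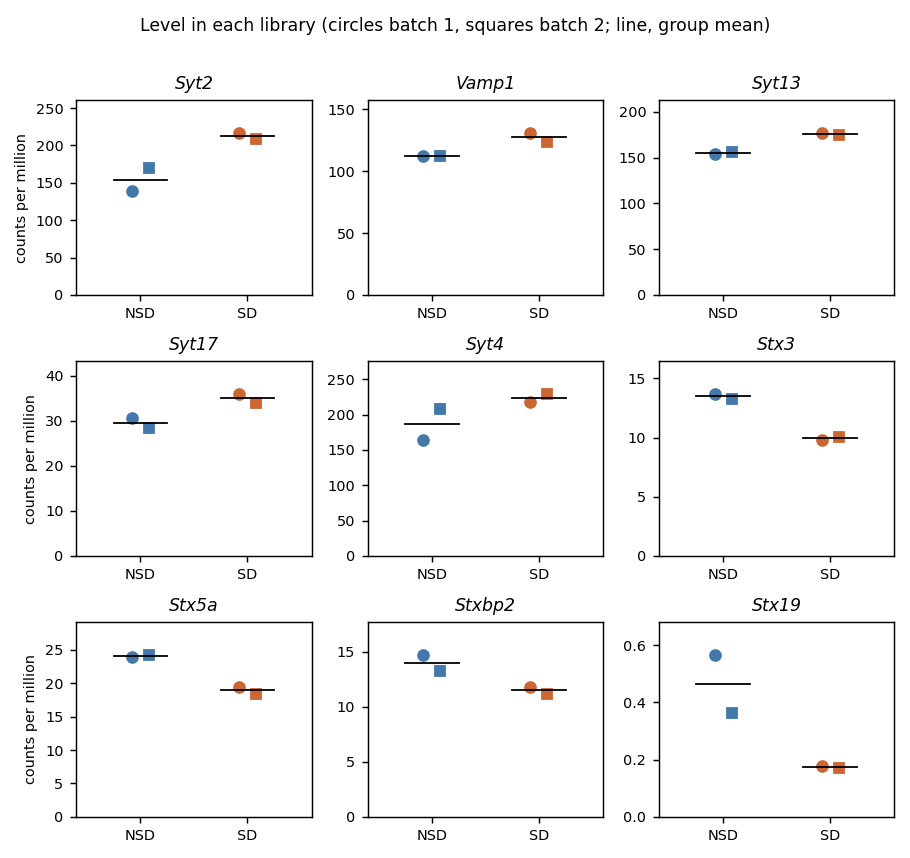
Level in each library, in CPM on axes that start at 0, of the 9 members with an unadjusted p under 0.05, with circles for batch 1, squares for batch 2 and a line for the mean of 2 libraries. Syt2, Vamp1, Syt13, Syt17 and Syt4 lie higher in both SD libraries, and Stx3, Stx5a, Stxbp2 and Stx19 lie lower in both.

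Among the synaptotagmins that bind calcium with slower or higher-affinity kinetics (Syt3, Syt5, Syt6, Syt7, Syt10), none was called in any direction by edgeR or DESeq2, and none passed an unadjusted p under 0.05. Syt7, a sensor for asynchronous release and facilitation, had the highest level per kilobase of these 5, at 336 ± 8.34 TPM in NSD and 358 ± 13.9 TPM in SD (± standard deviation of 2 libraries, as in all such values). In CPM it stood at 409 and 405 in NSD and at 433 and 468 in SD, a log2 fold change of 0.15 (95% confidence interval -0.04 to 0.34). The fold changes of the 5 ran from 0.03 to 0.15 on the log2 scale, so all were above 0. Syt6 and Syt10 were low, at 3.23 to 3.88 and 4.26 to 5.35 CPM.

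Of the 8 synaptotagmins with weak or no calcium binding, none was called by edgeR, and 3 had an unadjusted p under 0.05, all with higher values in SD. Syt4, an activity-regulated gene that acts in dense-core vesicle and dendritic secretion, stood at 164 and 208 CPM in NSD and at 218 and 230 CPM in SD. The highest NSD and lowest SD libraries of Syt4 were close to each other. Its log2 fold change was 0.27 with an SE of 0.11 (edgeR adjusted p = 0.242). With the replicate block it was called higher, at a log2 fold change of 0.28 and an adjusted p of 0.0234. Within batch 1 the difference was 0.41 and within batch 2 it was 0.14, and over 10 settings the adjusted p ran from 0.0234 to 0.604.

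Syt17, a Golgi and endosome synaptotagmin, stood at 30.6 and 28.5 CPM in NSD and at 36.1 and 34.0 CPM in SD. Its log2 fold change was 0.25 with an SE of 0.08 (edgeR adjusted p = 0.120), and the differences of 0.24 and 0.26 within the batches were close to each other. The adjusted p with the replicate block was 0.0207, but the fold change stayed under 1.2, and DESeq2 called the gene higher at a log2 fold change of 0.27 and an adjusted p of 0.0463. Syt13, which has no calcium ligands, stood at 154 and 157 CPM in NSD and at 177 and 175 CPM in SD (log2 fold change 0.18, SE 0.07, edgeR adjusted p = 0.191). Its SD libraries lay above its NSD libraries by more than the spread within each group.

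Syt11, which acts in endocytosis and vesicle recycling, had the highest level per kilobase of these 8, at 731 ± 33.6 TPM in NSD and 747 ± 1.37 TPM in SD, and its log2 fold change was 0.09 (95% confidence interval -0.13 to 0.31). Syt16 was at 98.4 to 112 CPM and Syt14 at 62.7 to 69.6 CPM. Syt12 stood at 35.8 and 45.6 CPM in NSD and at 34.2 and 38.7 CPM in SD. Syt15 was nearly silent at 0.227 to 0.432 CPM. The fold changes of Syt12, Syt14 and Syt15 lay below 0 and did not pass the test.

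Plasma membrane syntaxins gave the only member called lower. Stx3, the syntaxin of ribbon synapses and polarized epithelia that also serves receptor exocytosis at postsynaptic sites, lies at chr19:11752482-11796767. It stood at 13.7 and 13.2 CPM in NSD and at 9.81 and 10.1 CPM in SD. The gap between the groups was wider than the spread within either. The log2 fold change was -0.44 with an SE of 0.09 (95% confidence interval -0.66 to -0.22), with an edgeR adjusted p of 0.0493. Within batch 1 the difference was -0.48 and within batch 2 it was -0.40. The call was made with the replicate block (adjusted p = 0.00572) and with DESeq2 (adjusted p = 0.00645), and was lost in the other 8 of 10 settings, among them each fit that left out a library, where the log2 fold change stayed between -0.47 and -0.39. Over all 10 the adjusted p ran from 0.00572 to 0.152.

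Exons of Stx3 and of Mrpl16, a mitochondrial ribosomal protein gene on the opposite strand, share 1376 bases of the 13515 exonic bases of Stx3. Whether the authors' counting used strand is not given in the sources used here. Mrpl16 stood at 7.29 and 8.40 CPM in NSD and at 7.28 and 7.77 CPM in SD, and its log2 fold change was -0.06 (edgeR adjusted p = 0.864).

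Stx1a, a partner of SNAP25 and VAMP2 at the active zone, did not pass the test. It was even over the libraries, at 49.8 and 50.2 CPM in NSD and at 49.8 and 49.1 CPM in SD, with a 95% confidence interval of -0.16 to 0.13 on the log2 scale.

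Stx19, a syntaxin of epithelial secretion, was at 0.567 and 0.363 CPM in NSD and at 0.177 and 0.169 CPM in SD, from 94, 57, 32 and 32 estimated counts. Its log2 fold change of -1.42 had an SE of 0.46 (edgeR adjusted p = 0.135) and was called in none of the 10 alternative settings. Stx2 stood at 5.56 and 4.47 CPM in NSD and at 4.78 and 3.39 CPM in SD, and Stx4a, the mouse Stx4, at 6.19 and 6.28 in NSD and 7.30 and 6.73 in SD. Stx11 was at 0.229 to 0.337 CPM. None of these 4 was called.

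In the SNAP25 family no member was called by edgeR or DESeq2, and none passed an unadjusted p under 0.05. Snap25, the neuronal member, stood at 868 and 1008 CPM in NSD and at 997 and 1039 CPM in SD (log2 fold change 0.12, 95% confidence interval -0.13 to 0.36), and its groups overlapped. Snap47 was at 233 to 255 CPM, and Snap29, which serves autophagosome fusion, at 23.1 and 21.6 CPM in NSD and 24.5 and 25.1 CPM in SD. Snap23, the form used by non-neuronal cells and at postsynaptic sites, stood at 3.73 and 2.40 CPM in NSD and at 2.17 and 2.20 CPM in SD. The NSD library of batch 1 was the one that stood apart, and without it the log2 fold change was -0.11, against -0.49 with all libraries. Of the 7266 exonic bases of Snap23, 2179 are shared with Lrrc57 on the opposite strand. Over the 4 libraries Lrrc57 had 7618 counts and Snap23 had 1802.

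Vesicle SNAREs were led by Vamp2, the member with the highest level per kilobase of all 61. Vamp2, the synaptic vesicle SNARE, stood at 1410 ± 36.7 TPM in NSD and 1529 ± 54.9 TPM in SD, and at 788 and 838 CPM in NSD and 931 and 904 CPM in SD. The groups did not overlap, and the log2 fold change of 0.17 had an SE of 0.09 (edgeR adjusted p = 0.368). DESeq2 gave an adjusted p of 0.0491 at a fold change under 1.2, and over 10 settings the adjusted p ran from 0.0491 to 0.760.

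Vamp1, the paralog of Vamp2 that is strong in brainstem, spinal cord and fast-spiking interneurons, stood at 113 and 112 CPM in NSD and at 131 and 124 CPM in SD. The NSD libraries were nearly alike and both SD libraries were above them. The log2 fold change was 0.18 with an SE of 0.07 (edgeR adjusted p = 0.187). Vamp1 made up 4.61% ± 0.20 of the summed TPM of vesicle SNAREs in NSD and 4.65% ± 0.08 in SD, so its share did not move beyond that spread. Vamp4, a Golgi and bulk-endocytosis SNARE, was at 35.1 to 40.2 CPM, Vamp3 at 9.65 to 12.3 CPM and Vamp8 at 1.35 to 1.88 CPM. Vamp5 and Vamp9 lay under 1 CPM in every library.

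Syntaxin-binding proteins hold, open or trap syntaxins. Stxbp2, the Munc18-2 of immune and epithelial secretion, stood at 14.8 and 13.2 CPM in NSD and at 11.9 and 11.2 CPM in SD. Both SD libraries were lower, with a log2 fold change of -0.28 and an SE of 0.10 (edgeR adjusted p = 0.168). With the replicate block Stxbp2 was called lower, at -0.28 with an adjusted p of 0.0464, which was the only one of the 10 settings to call it.

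Stxbp3, the Munc18-3 of constitutive and insulin-regulated secretion, varied widely within groups, at 166 and 101 CPM in NSD and at 152 and 126 CPM in SD. Its batch 1 libraries were both above its batch 2 libraries. The tomosyns Stxbp5 and Stxbp5l, which inhibit SNARE assembly, stayed at 196 to 212 and 160 to 187 CPM. Stxbp4 was at 22.0 and 21.1 CPM in NSD and at 24.3 and 23.4 CPM in SD, and Stxbp6, or amisyn, was at 24.8 to 32.7 CPM with overlapping groups.

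The disassembly machinery had the narrowest range of fold changes among the role groups with more than 1 member. Nsf, the ATPase, stood at 678 and 750 CPM in NSD and at 678 and 772 CPM in SD, a log2 fold change of 0.02 (95% confidence interval -0.22 to 0.26). The adaptors Napa, Napb and Napg, which are the alpha-, beta- and gamma-SNAP, had log2 fold changes of -0.03, 0.04 and 0.04. No member of the 4 was called by edgeR or DESeq2 or passed an unadjusted p under 0.05, and all 4 had overlapping groups. The upper ends of their 95% confidence intervals lay at 0.18 to 0.26 on the log2 scale.

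Proteins of the vesicle membrane and surface were also not called by edgeR or DESeq2, and none passed an unadjusted p under 0.05. Syp, an abundant integral vesicle protein, stood at 1059 and 1165 CPM in NSD and at 1214 and 1255 CPM in SD, with a log2 fold change of 0.15 (95% confidence interval -0.08 to 0.38). Its SD libraries lay above its NSD libraries. Sv2b, which is enriched in glutamatergic terminals, stood at 394 and 481 CPM in NSD and at 480 and 550 CPM in SD, a log2 fold change of 0.24 with an SE of 0.12 (edgeR adjusted p = 0.330). Its adjusted p with the replicate block was 0.0376, but the fold change stayed under 1.2.

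Sv2a, the binding site of levetiracetam, was at 450 to 502 CPM and Sv2c at 40.9 to 45.7 CPM. Syn1 was at 369 to 408 CPM and Syn2 at 413 to 438 CPM, each with overlapping groups. Syn3 was the member of this role group with a fold change below 0, at 29.8 and 26.6 CPM in NSD and at 22.2 and 27.1 CPM in SD. Its exons share bases with Fbxo7 and Timp3 on the opposite strand. Snap91, for AP180 in clathrin-mediated vesicle retrieval, stood at 241 and 268 CPM in NSD and at 256 and 272 CPM in SD.

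Among the 8 syntaxins of the Golgi and endosomes, Stx5a stood apart. Stx5a, the Golgi SNARE of transport from the endoplasmic reticulum, was at 24.0 and 24.3 CPM in NSD and at 19.5 and 18.4 CPM in SD. Replicates lay close together and the groups were well separated. The log2 fold change was -0.35 with an SE of 0.08 (95% confidence interval -0.53 to -0.17), and the edgeR adjusted p of 0.0540 missed the threshold. With the replicate block the value was -0.35 with an adjusted p of 0.00606, and the gene was called lower there, with DESeq2 and without SD replicate 1, 3 of 10 settings, over which the adjusted p ran from 0.00606 to 0.242.

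The other 7 had log2 fold changes from -0.03 to 0.08. Stx16, a syntaxin of endosome-to-Golgi transport with the highest level per kilobase of the 8, stood at 59.8 and 58.2 CPM in NSD and at 65.9 and 58.9 CPM in SD. Stx12 and Stx7, endosomal syntaxins, were at 75.5 to 86.2 and 65.7 to 76.2 CPM, Stx6 at 74.3 to 83.5, Stx17 of the autophagosome at 25.7 to 27.0, and Stx18 and Stx8 at 8.70 to 10.5 and 7.96 to 9.43. Exons of Stx18 share 738 bases with Nsg1 on the opposite strand, which had 120140 counts against 6653 for Stx18. No role group except the fast sensors and the plasma membrane syntaxins held a member called by edgeR without the block.

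**Figure D3:**
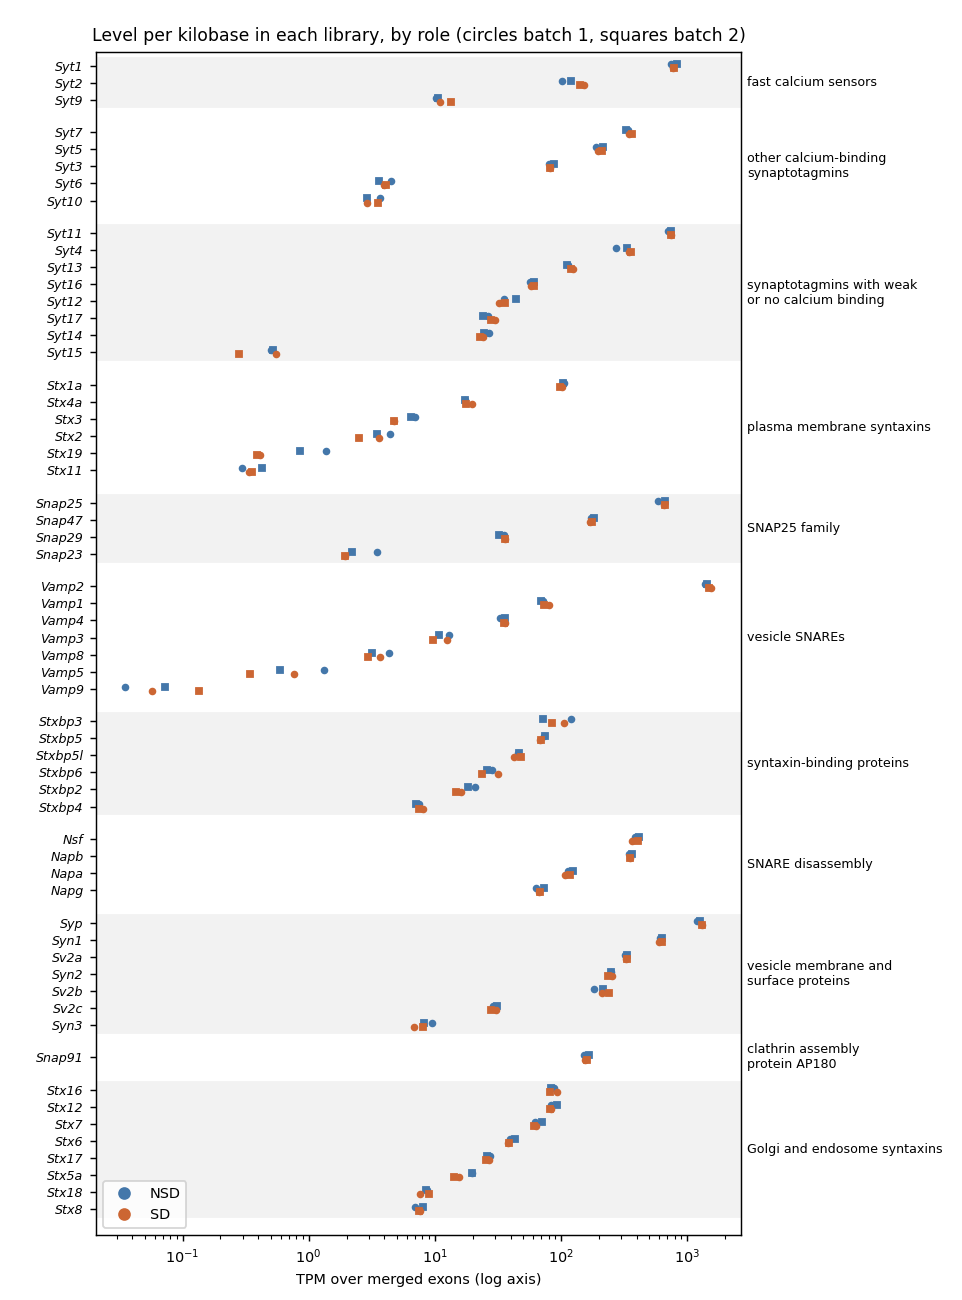
Level per kilobase (TPM over merged exons, log axis) of the members reported by name in each library, by role, with NSD in blue, SD in orange, circles for batch 1 and squares for batch 2. Vamp2 (1469.9 TPM) and Syp (1281 TPM) lie highest, and 5 members lie under 1 TPM.

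Levels per kilobase spanned more than 4 powers of 10, from Vamp2 at 1469.9 TPM to Vamp9 at 0.0751 TPM as means over the 4 libraries. Above 100 TPM lay 22 members and under 10 TPM lay 15. Among the highest, in falling order, were Vamp2, Syp, Syt1, Syt11, Snap25, Syn1, Nsf and Napb. Every Vamp2 value lay above every Syp value, while Snap25 overlapped Syn1. At the bottom were Stx19, Vamp5, Syt15, Stx11 and Vamp9, each under 1 TPM. Of the 60 neighbouring pairs in the order, 22 did not overlap over the 4 libraries. All members together took 1.34% ± 0.07 of the counts in NSD and 1.38% ± 0.01 in SD, a difference smaller than the spread between the NSD libraries.

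Fold changes varied with level. Of the 26 members at 100 CPM or more, 24 lay above 0, with a median log2 fold change of 0.07, which was also the median of the 2143 protein-coding genes of that level, of which 75.2% lay above 0. The 21 members from 10 to under 100 CPM had a median of -0.01, beside 0.04 for protein-coding genes of that level. The 14 members under 10 CPM had a median of -0.0021, beside -0.07.

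**Figure D4:**
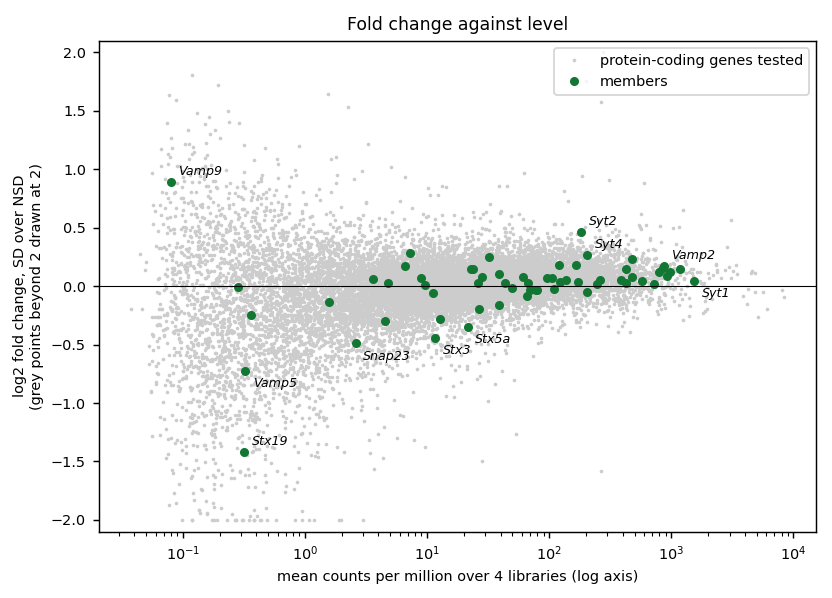
Log2 fold change of SD over NSD against mean CPM over the 4 libraries (log axis), with the 61 members in green and the 15551 protein-coding genes tested in grey. Most members of high level sit just above 0, Syt2 sits above them at 0.46, and Stx19, Vamp5 and Vamp9 lie in the wide scatter under 1 CPM.

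Markers of non-neuronal cells were set beside the members with lower values in SD. The 6 endothelial markers lay at a median of -0.72 on the log2 fold change scale, and of these edgeR called 4 lower with the replicate block and none without it, while DESeq2 without the block called 3 lower (Tek, Flt1 and Tie1). The 6 microglial markers summed to 72.8 and 57.6 CPM in NSD and to 72.4 and 55.3 CPM in SD. The part of endothelial RNA in the values of Stx3 and Stx5a was not tested.

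Within batches, 28 members were higher in SD in both, 13 were lower in both, and 20 went opposite ways, 14 of them higher in batch 1 only. Among protein-coding genes tested 36.6% were higher in both and 29.2% lower in both, beside 45.9% and 21.3% of members. Higher in batch 1 only were 19.8% of protein-coding genes and 23.0% of members. Higher in batch 2 only were 14.4% and 9.84%. The median difference over the members was 0.08 in batch 1 and 0.02 in batch 2, beside 0.03 and 0.006 over protein-coding genes tested.

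**Figure D5:**
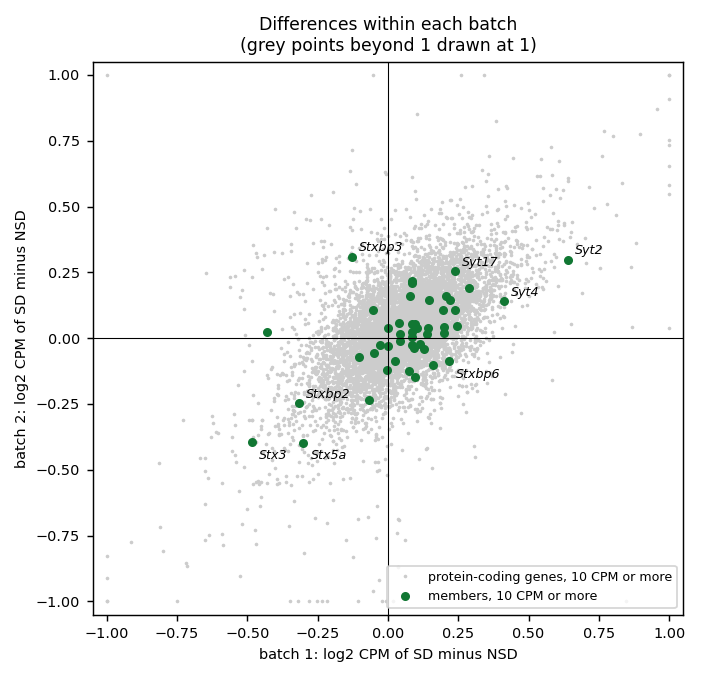
Difference of SD minus NSD in log2 CPM within batch 1 (horizontal) and within batch 2 (vertical), for members (green) and protein-coding genes (grey) at 10 CPM or more. Syt2 (0.64 and 0.30) is at the upper right, Stx3 (-0.48 and -0.40) and Stx5a (-0.30 and -0.40) at the lower left, and Stxbp3 changes sign between batches.

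Other genes of the vesicle cycle were read from a list of 83 covering synaptogyrins, SCAMPs, vesicular transmitter transporters, Rab3 and Rab27 with their effectors, further SNAREs and Sec1-type proteins, endocytosis genes and proton pump subunits. Of these, 80 were tested, 3 rose and none fell by edgeR (0.952% higher and 0.540% lower among protein-coding genes). At an unadjusted p under 0.05 stood 10 with higher and 1 with lower values, beside 8.86% and 5.76% of protein-coding genes. Over the 80, the log2 fold changes had a median of 0.05. DESeq2 called 5 higher and 1 lower, beside 3.98% and 1.82% of protein-coding genes, and 2 of those 5 were called in neither edgeR fit: Rph3a, a Rab3 effector (DESeq2 log2 fold change 0.27, adjusted p = 0.00375), and Syngr1, a vesicle membrane protein (DESeq2 log2 fold change 0.26, adjusted p = 0.00355), both named after their values were seen.

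Rab3c, a vesicle GTPase, stood at 842 and 881 CPM in NSD and at 1245 and 1182 CPM in SD (log2 fold change 0.49, SE 0.10, edgeR adjusted p = 0.0400). Itsn1, an endocytic scaffold that also binds SNAP25, stood at 281 and 271 CPM in NSD and at 399 and 362 CPM in SD (log2 fold change 0.46, SE 0.08, edgeR adjusted p = 0.0385). Ston2, an adaptor that retrieves synaptotagmin 1 from the plasma membrane, stood at 79.4 and 72.3 CPM in NSD and at 97.5 and 99.2 CPM in SD (log2 fold change 0.37, SE 0.07, edgeR adjusted p = 0.0397). For all 3 the groups were far apart and replicates close. Their calls were lost with no count filter, with filterByExpr and among protein-coding genes alone with edgeR. Without NSD replicate 1 only Ston2 was called, and without NSD replicate 2 none of the 3 was.

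In the fit with the replicate block, 2 more of these genes were called, named here after their values were seen. Slc17a6, the vesicular glutamate transporter VGLUT2 that is strongest in subcortical neurons, stood at 36.0 and 54.0 CPM in NSD and at 63.1 and 74.8 CPM in SD. Its log2 fold change was 0.62 (edgeR adjusted p = 0.0878), and 0.64 with the block (adjusted p = 0.000118), while DESeq2 did not call it (adjusted p = 0.208). Sytl2, a Rab27 effector, stood at 47.8 and 41.9 CPM in NSD and at 36.1 and 35.8 CPM in SD, and its log2 fold change was -0.32 (edgeR adjusted p = 0.0707). It was called lower with the block (adjusted p = 0.00584) and with DESeq2. Both SD libraries lay outside the NSD range for either gene.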

How the data were processed

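Ribosome-bound RNA of 4 libraries (2 NSD, 2 SD, each from 5 mice) was analysed. The authors deposited unnormalized estimated counts for each gene, made with STAR 2.7.8a and the expectation-maximization counting of Partek Flow on mm39 (GRCm39) with Ensembl 110. Counts were rounded, since 55.6% of genes held a value that was not whole. Genes above 5 counts in each library were tested with edgeR 4.0.16 (TMM scaling, quasi-likelihood test, Benjamini-Hochberg over all genes), in R 4.3.3, after a test on simulated data. DESeq2 1.42.0 was an alternative. Levels are TMM-scaled CPM and, per kilobase of merged GENCODE M39 exons, TPM.

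The members and gene lists were chosen with earlier results of these data known. Full statistics are given for members called with or without the replicate block, those at an unadjusted p under 0.05, and the member of highest level per kilobase in each role group, with Syt4 added, and of the other vesicle cycle genes for those called. Roles come from textbook knowledge, and Stx4a and Vamp9 were placed with the plasma membrane syntaxins and vesicle SNAREs after the table was seen. The batch number in the labels equals the replicate number, and the replicate block takes it as pairing the libraries. The paper describes no batches, so what the libraries of a batch shared is not known here. Their deviations from the group means correlated at 0.178. Labels call replicates biological, and p-values measure the spread between pools of mice. A few genes are counted among the members and lists but their values are not reported here.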

Additional observations from a re-analysis of the deposited data

How the results depend on the processing

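With the replicate block, DESeq2, no count filter, filterByExpr and protein-coding genes only, the members called higher by edgeR or DESeq2 numbered 2, 2, 0, 0 and 0 against 1, and those called lower 3, 2, 0, 0 and 0 against 1; with DESeq2 size factors in edgeR those called lower numbered 0. At an unadjusted p under 0.05, each of the settings with no call held 5 to 7 members higher and 4 lower. All genes called higher numbered 668, 669, 50, 1 and 51 against 172, and lower 1891, 1294, 80, 0 and 39 against 520, where filterByExpr had 2816 genes lower at an unadjusted p under 0.05. Other vesicle cycle genes called higher numbered 5 with DESeq2 and 0 in the last 3 of these settings, with 8 to 13 at an unadjusted p under 0.05, against 3. Called lower was 1 with the replicate block and 1 with DESeq2, against 0.

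Leaving out each library in turn gave 0 to 2 members higher and 0 to 1 lower, 124 to 308 genes higher and 78 to 1955 lower, 1 to 4 vesicle cycle genes higher and 0 to 1 lower, and a member median of 0.032 to 0.094. No member was called higher without NSD replicate 1, and the only such fit with a member called lower was that without SD replicate 1. The counts of lower genes at both ends came without NSD replicate 1 and without SD replicate 1. Members given full statistics are called named members in this section. Among them the log2 fold change changed sign for Nsf (-0.062 to 0.11), Stx16 (-0.0026 to 0.17) and Syt1 (-0.017 to 0.14), none of them called. Sign changes also occurred among the other members, such as Stxbp3 (-0.26 to 0.48) and Napg (-0.043 to 0.16). Leaving out a library put 36 to 44 of the 61 members above 0. Of 180 values of named members, 157 kept direction and side of the threshold, 12 fell short of it, 7 passed it and 4 changed sign. Among the named members, the replicate block changed no call other than those of Stx5a, Stxbp2 and Syt4. The cause of these shifts was not tested.

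Lengths of the longest transcript in place of merged exons kept the leading member of each role group except the Golgi and endosome syntaxins, where Stx12 passed Stx16. With 2 libraries a group, changes under the fitted intervals were not detectable.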
